A study of Mus musculus with 34 samples.

Results

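The genes described here are 7 that encode transcription factors of heart development: Nkx2-5, Tbx5, Tbx20, Hand1, Hand2, Mef2c and Isl1. They were taken by name, and all 7 were found among the 21627 protein-coding genes placed on chromosomes 1 to 19 and X in the mm10 annotation (GRCm38.p6). Open chromatin near them was described from 19 lists of ATAC-seq summits. ATAC-seq uses a transposase that cuts and tags accessible DNA, and a summit is the base of highest signal in a called peak. Every summit inside a gene or within 50 kb of its interval was collected, and summits lying within 250 bp of each other in any of the lists were joined into 1 position. This gave 104 positions of the 156849 in the whole series. Each position was then scored as present in or absent from each list.

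The study induced Etv2, a transcription factor of the ETS family that drives vessel and blood formation, in mouse embryonic fibroblasts (MEF) and in embryoid bodies (EB), which are clumps of embryonic stem cells left to differentiate. There are 34 labelled samples, in 17 groups with 2 each. The protocols name the fibroblasts as iHA-Etv2 MEFs and the inducer is given as doxycycline (Dox). The labels do not say which promoter drives the transgene in each group, and do not tie samples to separate cultures. Fibroblasts without knockdown were uninduced at day 0, or given doxycycline and taken at day 1, day 2 or day 7, with a further day 7 group that was Flk1-positive. Flk1 is the surface receptor encoded by Kdr and marks haemangiogenic mesoderm. Fibroblasts with knockdown of Brg1, the ATPase of the SWI/SNF chromatin remodelling complex, were taken at day 0 and, with or without doxycycline, at day 1, day 2 and day 7. The method of knockdown is not given in the labels. The EB groups were uninduced, induced, and induced Flk1-positive, all labelled 12 h. Their titles also carry D25, which the labels do not explain, and the labels do not say whether uninduced and induced EB were taken at the same day of differentiation. The last groups were Brg1-floxed EB at day 4, with or without 4-hydroxytamoxifen (4OHT). Both of these are labelled as given doxycycline, and how much Brg1 was left after 4OHT was not analysed here.

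For 15 of the 17 groups both replicates share 1 pooled list, so these groups have 1 value each, with no replicate error and no p-value. Each of the 4 floxed EB samples has its own list. Lists held 11188 to 85498 summits. Read depth was not analysed here, and list length is the only stand-in for it. In such bulk samples, fewer open cells and less opening per cell cannot be told apart. The knockdown and floxed lists differ from the others in how their scores are written, since 0% of their scores have more than 6 digits against 27.6 to 55.9% in the fibroblast lists without knockdown and the 12 h EB lists. Knockdown and processing therefore cannot be told apart, nor can 12 h EB and floxed EB be compared apart from processing. Marker lists matched the labels only in part. All 6 pluripotency markers had a position in each 12 h EB list (44 to 62 positions summed), and 2 or 3 of the 6 also had positions in every fibroblast and knockdown list (2 to 19 summed), where Sox2 and Dppa4 had 0. The 8 fibroblast markers had 49 positions in uninduced MEF and 4 at day 7 of induction, where Col1a2, Col3a1, Thy1, Pdgfra and Prrx1 had 0. They had 30 to 37 positions in the 12 h EB lists, more than in any induced MEF list (4 to 28). The 6 endothelial markers had 24 positions in uninduced MEF, 7 at day 7 and 12 in day 7 Flk1-positive MEF, against 36 to 56 in the 12 h EB lists. The 6 cardiomyocyte markers had 29 in uninduced MEF and 29 to 49 in the 12 h EB lists. The summed pluripotency counts thus separated the 12 h EB lists from the fibroblast and knockdown lists. The fibroblast, endothelial and cardiomyocyte counts did not follow the labelled cell types throughout. No cell type is taken from any of these counts.

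As background, these factors form the core of the network that builds the heart. Isl1, a LIM homeodomain protein, marks progenitors of the second heart field, and Nkx2-5, a homeodomain protein, is among the earliest markers of committed cardiac cells. Tbx5 and Tbx20 are T-box proteins of the chambers and valves, Hand1 and Hand2 are basic helix-loop-helix proteins of the left and right ventricle, and Mef2c is a MADS-box protein that also acts in skeletal muscle, neurons and vessels. Etv2 directs mesoderm towards endothelium and blood, and the cardiac and haemangiogenic fates arise from neighbouring mesoderm.

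The starts of these genes differed in whether a summit lay on them, so promoter sequences are shown for 4 starts that span the range. RefSeq promoters (GRCm38.p6, 250 bases before to 50 after a start, 300 in all) were matched for 5 of the 7 genes and gave 7 starts, of which 3 belong to Mef2c. The first is the start of Tbx20 (chr9:24774254-24774553, minus strand), on which all 7 EB and floxed EB lists had a summit. The next is the start of Isl1 (chr13:116309639-116309938, minus strand), where 6 of those 7 lists had a summit inside the window and all 7 within 1 kb of the start. The start of Hand2 (chr8:57320733-57321032, plus strand) had 0 summits inside and 6 lists with a summit within 1 kb. The inner start of Mef2c (chr13:83523406-83523705, plus strand) is the start shown here that fibroblasts also opened, with 3 lists inside and 13 within 1 kb. Sequences run 5′ to 3′ on the gene's strand, and capitals mark matches to the motifs named after them.
Tbx20: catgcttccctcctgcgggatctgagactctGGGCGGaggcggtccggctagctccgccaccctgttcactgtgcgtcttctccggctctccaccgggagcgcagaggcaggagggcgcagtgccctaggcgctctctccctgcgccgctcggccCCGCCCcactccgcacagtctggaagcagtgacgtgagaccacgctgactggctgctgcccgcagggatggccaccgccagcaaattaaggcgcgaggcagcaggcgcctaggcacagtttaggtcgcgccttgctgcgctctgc
Isl1: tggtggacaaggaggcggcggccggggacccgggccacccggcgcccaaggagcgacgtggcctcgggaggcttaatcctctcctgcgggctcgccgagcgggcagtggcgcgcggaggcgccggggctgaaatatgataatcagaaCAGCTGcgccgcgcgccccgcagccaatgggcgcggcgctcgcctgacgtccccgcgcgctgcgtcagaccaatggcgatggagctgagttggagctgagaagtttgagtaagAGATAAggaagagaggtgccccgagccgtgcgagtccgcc
Hand2: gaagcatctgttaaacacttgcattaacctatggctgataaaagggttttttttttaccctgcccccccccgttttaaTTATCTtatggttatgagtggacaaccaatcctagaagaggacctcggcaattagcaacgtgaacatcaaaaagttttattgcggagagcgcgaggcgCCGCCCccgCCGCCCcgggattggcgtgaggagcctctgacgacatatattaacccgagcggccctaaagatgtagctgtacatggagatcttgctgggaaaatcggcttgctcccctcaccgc
Mef2c: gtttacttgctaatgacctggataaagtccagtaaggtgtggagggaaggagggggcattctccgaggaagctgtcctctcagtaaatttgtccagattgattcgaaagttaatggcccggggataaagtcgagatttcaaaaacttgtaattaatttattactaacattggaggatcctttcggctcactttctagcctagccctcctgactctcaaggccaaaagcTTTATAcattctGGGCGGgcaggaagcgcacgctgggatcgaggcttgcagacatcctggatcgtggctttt

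Capitals in the Tbx20 promoter are a pair of SP/KLF matches (GGGCGG, or CCGCCC on the other strand), a motif held by 35.7% of all 32851 promoters of this length. Isl1 held 1 E-box match (CAGCTG, 16.3% of promoters) and 1 GATA match (AGATAA, 11.2%). Hand2 held 1 GATA match, read here as TTATCT, and 2 SP/KLF matches. The Mef2c start held 1 TATA match (TATAAA, 13.6%), read as TTTATA, and 1 SP/KLF match. No capital stretch overlapped another. The ETS motif searched, CCGGAA, which 14.9% of promoters hold, was in 0 of the 7 promoters of these genes. It is longer than the ETS core GGAA, which was not searched and occurs in each printed sequence. The T-box motif AGGTGTGA (1.28% of promoters), the NK homeobox motif TNAAGTG (11.5%) and the MEF2 motif (3.69%) were also in none of the 7. Both strands were searched. A match describes letters only, and its absence says only that those letters are not in these windows. The GC content was 69.0% at Isl1 and 68.3% at Tbx20, against 50.3% at Hand2, 51.7% at Nkx2-5 and 47.0% at this Mef2c start, with a median of 52.7% over all promoters.

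Most of the open positions near these genes were seen in embryoid bodies and not in fibroblasts. Of the 104 positions, 78 (75.0%) were present in a 12 h EB or floxed EB list and in no fibroblast list, with or without knockdown (exact Clopper-Pearson 95% interval 65.6 to 83.0%). Over all positions of the series this share was 43.5%. A further 16 (15.4%, 9.06 to 23.8%) were in fibroblast or knockdown lists alone, against 36.2% of all positions, and 10 of these 16 lay in the Nkx2-5 window. All 4 kinds of list held 4 of the positions (3.85%), against 10.4% of all positions, and 0 were in all 19 lists, against 1.59%. Of the 84 positions present in any 12 h EB list, 76 were absent from all 5 fibroblast lists without knockdown, which is 90.5% (82.1 to 95.8%). Over all such positions of the genome the share was 71.2%. At over 1 kb from any end of a protein-coding gene, the shares were 91.2% (62 of 68, 81.8 to 96.7%) and 79.4%. Positions at ends of noncoding genes were kept in these shares. All intervals given here cover counting error only, and positions near 1 gene are not independent of each other. Of the 104 positions, 43 (41.3%) were in 1 list only, and the share over the genome is not given here.

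**Figure D1:**
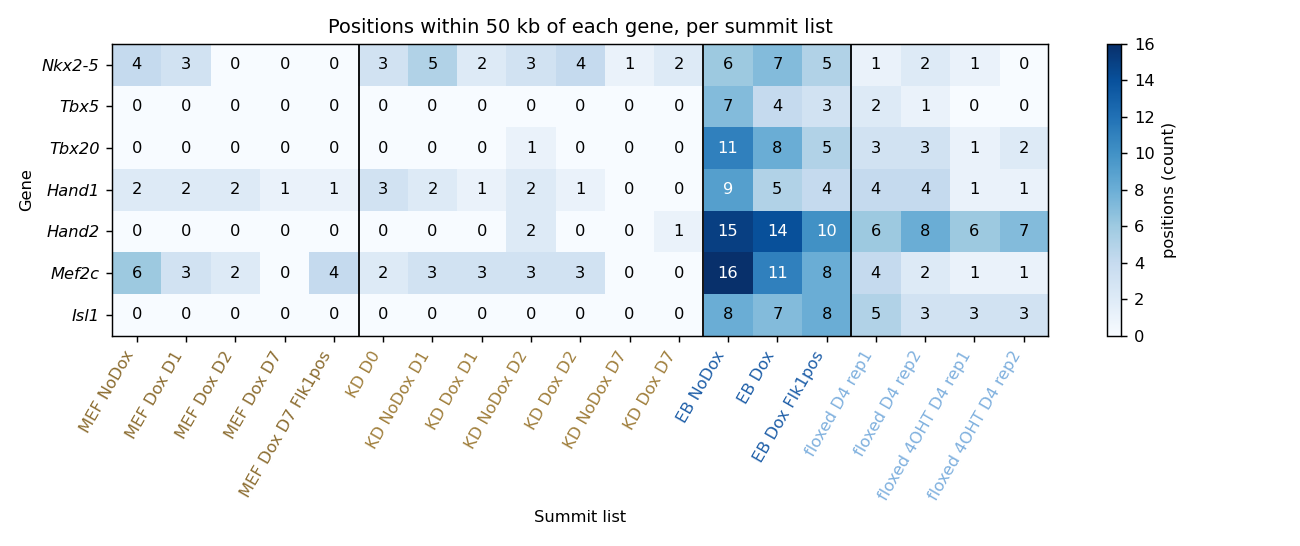
Number of positions (joined summits) within 50 kb of each of the 7 genes (vertical axis) in each of the 19 summit lists (horizontal axis; NoDox is uninduced, Dox induced, D the day, KD the Brg1 knockdown, Flk1pos Flk1-positive). Vertical lines separate fibroblast, knockdown, 12 h EB and floxed EB lists; Tbx5 and Isl1 are at 0 in all 12 fibroblast lists, and the uninduced EB list is highest for 5 of the 7 genes, with Isl1 sharing its highest count of 8 between uninduced and Flk1-positive EB.

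The uninduced lists gave the plainest contrast. Uninduced EB had 72 positions near the 7 genes and uninduced MEF had 12. All 7 genes had more positions in EB, as did 12690 of all 21627 genes (58.7%), while 26.9% of all genes had fewer. Between these lists 65 positions were gained in EB, 5 were present only in MEF and 7 were shared. Gained positions made up 92.9% (84.1 to 97.6%) of those that differed, against 63.4% over the genome. The EB list is the longer of the pair, with 85498 summits against 62028. Per 10000 summits the 7 genes had 8.42 positions in uninduced EB and 1.93 in uninduced MEF. The 12 fibroblast and knockdown lists ranged from 0.543 to 2.81 per 10000 summits, and the 7 EB and floxed EB lists from 6.92 to 9.65. How often other sets of genes differ between these lists in this way was not counted, so this is not shown to be particular to the 7 genes. With both lists limited to their 11188 highest-scoring summits, 8 positions were gained and 2 lost (80.0%, 44.4 to 97.5%), against 50.4% over the genome, so at equal length the genome value lay inside the members' interval.

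Of the 7 genes, 4 (Tbx5, Tbx20, Hand2 and Isl1) had at least 1 position in each of the 3 EB lists and 0 in all 5 fibroblast lists without knockdown. Over all protein-coding genes 1106 did so, or 5.11%. This rule was set after the values had been seen, so the count is a description. Within 10 kb of the gene it took 6 of the 7, all but Mef2c, against 6.56% of all genes. With equal list lengths it took 2, Tbx20 and Isl1, against 4.07%. The fibroblast positions of Nkx2-5 and Hand1 all lay farther than 10 kb from those genes.

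**Figure D2:**
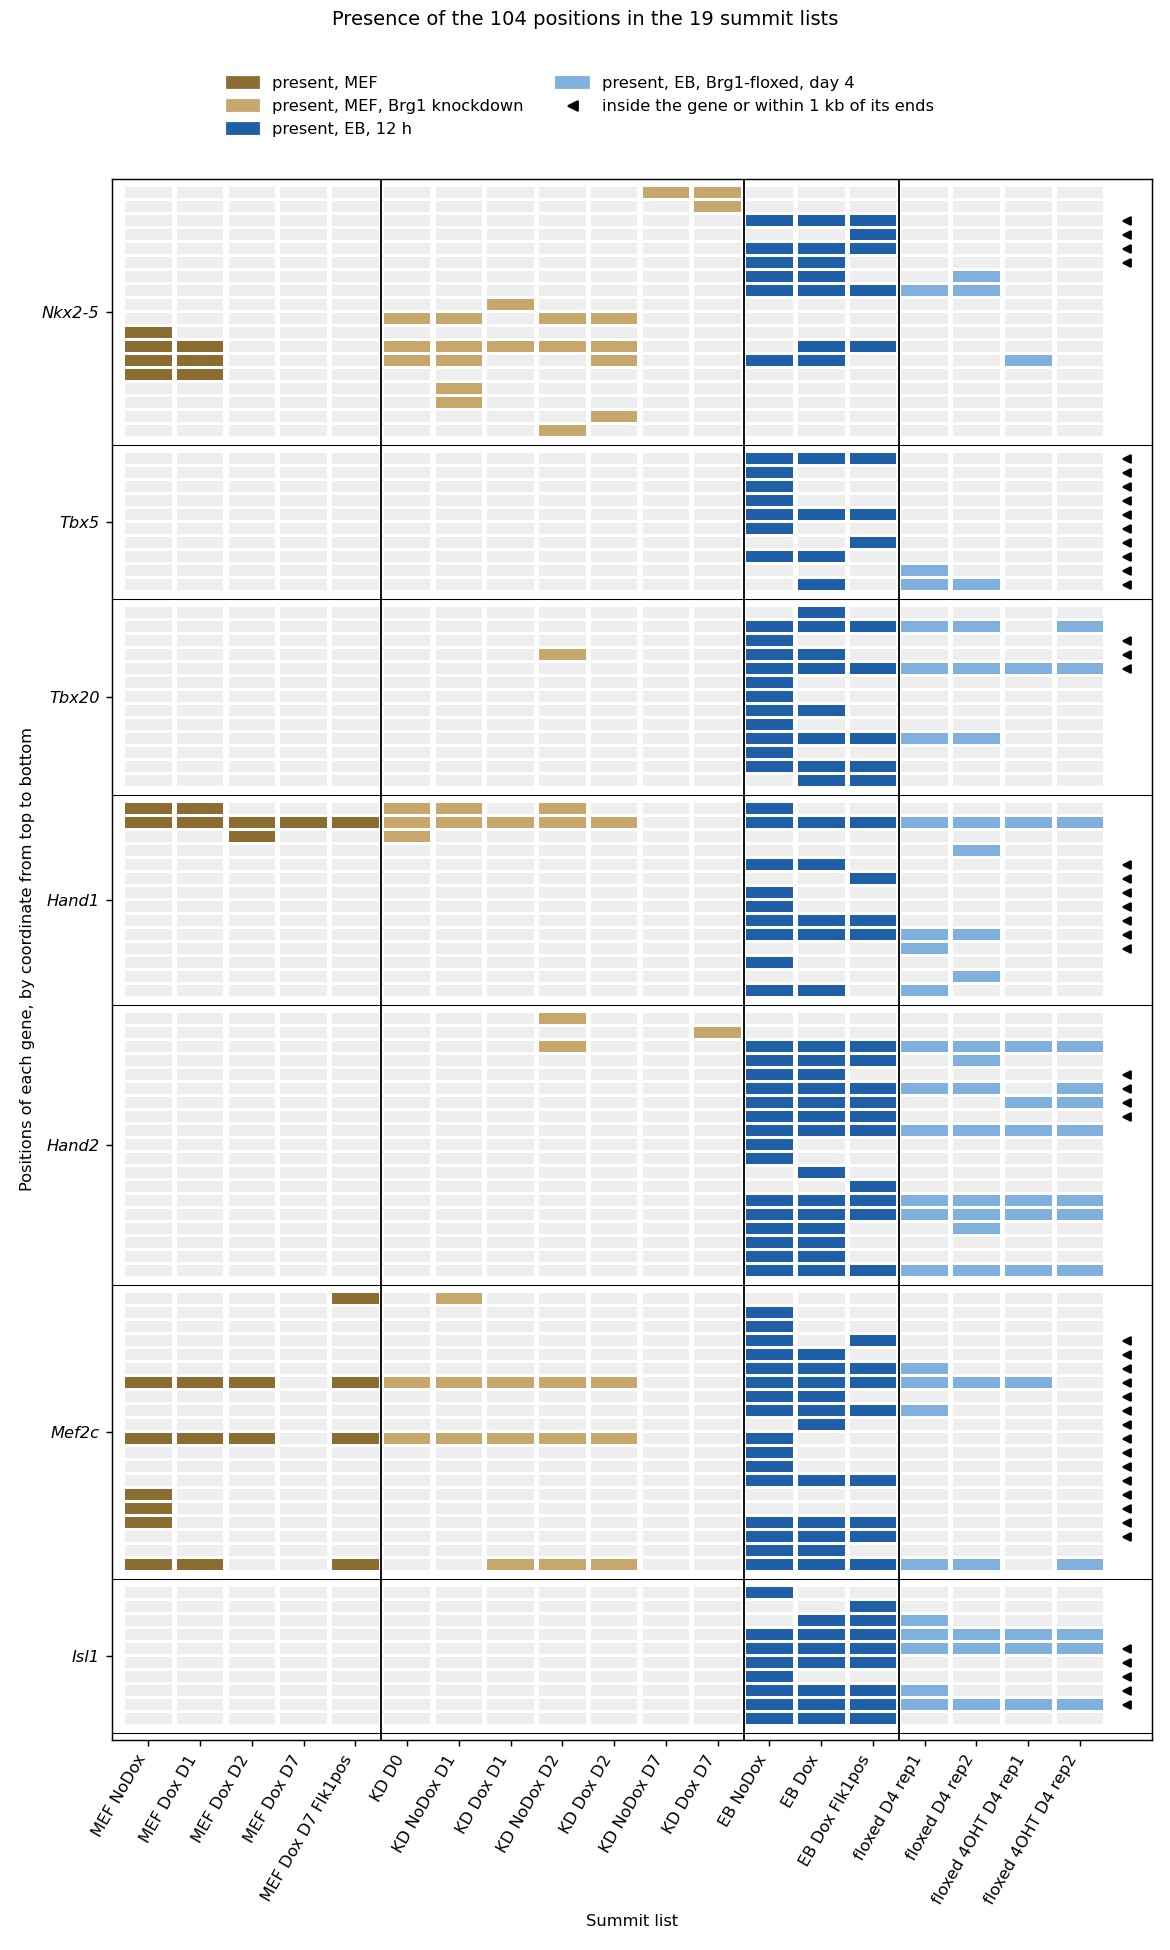
Presence of each of the 104 positions (rows, by gene and then by coordinate) in the 19 summit lists (columns, named as in the count plot); coloured cells are present, grey cells absent, and arrowheads mark positions inside the gene or within 1 kb of its ends. Coloured cells at Tbx5 and Isl1 lie in EB and floxed EB columns alone, and the fibroblast cells of Nkx2-5 and Hand1 fall in rows without an arrowhead.

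Isl1 (chr13:116298270-116309688, minus strand) had 10 positions, all in 12 h EB lists, and 0 in every fibroblast and knockdown list. Its counts were 8 in uninduced EB, 7 in induced EB and 8 in Flk1-positive EB. The floxed samples had 5 and 3 without 4OHT and 3 and 3 with it. No other protein-coding gene lies within its window. The position at 116309826, 138 bp before the gene's 5′ end and in the promoter printed above, had the highest score of all summits near the 7 genes in each of the 3 EB lists of 12 h. Its score (−log10 q) placed it in the top 2.68% of the uninduced EB list, 3.01% of the induced list and 3.42% of the Flk1-positive list. Scores were not compared between lists, since they grow with depth. A position 717 bp past the 3′ end (116297553) and another 4.33 kb past it (116293944) were also in all 7 EB and floxed EB lists. Isl1 was thus marked at both ends of the gene in every EB-type list.

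Nkx2-5 (chr17:26838664-26844988, minus strand) had a divided window of 18 positions. The 6 positions inside the gene or up to 5.84 kb upstream were in EB and floxed EB lists alone. The 12 positions at 16.3 kb or more upstream or 30.7 kb or more downstream included all of those seen in fibroblasts. Counts in MEF were 4 uninduced, 3 at day 1, and 0 at day 2, at day 7 and in day 7 Flk1-positive cells. Knockdown MEF had 1 to 5 and the 12 h EB lists 6, 7 and 5. The position at 26841458 lies 107 bp downstream of the RefSeq start and was in the 3 EB lists, but in 0 of the floxed lists. It ranked in the top 60.4% of the uninduced EB list, and no Nkx2-5 summit reached the top 10% of any 12 h EB list. The upstream fibroblast positions sit in or beside Gm17382, a long noncoding RNA gene, 37.8 to 43.1 kb from Nkx2-5. The most widely shared of them, at 26885119 (40.1 kb upstream), was in 9 lists: uninduced and day 1 MEF, 5 of 7 knockdown lists, and induced and Flk1-positive EB.

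Tbx5 (chr5:119796514-119885220) had 10 positions, all inside the gene, and 0 in all 12 fibroblast and knockdown lists. Its counts were 7 in uninduced EB, 4 in induced EB and 3 in Flk1-positive EB. The floxed samples had 2 and 1 without 4OHT and 0 and 0 with it. None lay within 1 kb of either gene end. No RefSeq promoter was matched for Tbx5, so whether a position lies at a start inside the interval was not examined. These were weak summits within their lists, the highest in uninduced EB (119803432, score 5.24) ranking in the top 73.2%. Only 2 positions, at 119803460 and 119835444, were in all 3 EB lists.

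Tbx20 (chr9:24720812-24774303, minus strand), the other T-box gene, was strongly marked at its start. Its counts were 11 in uninduced EB, 8 in induced EB and 5 in Flk1-positive EB, with 0 in the 5 fibroblast lists and 1 in a single knockdown list (day 2, no doxycycline). The position at 24774333, 30 bp before the start, was in all 7 EB and floxed EB lists. It ranked in the top 9.24%, 8.55% and 6.26% of the uninduced, induced and Flk1-positive EB lists. The floxed samples ranked it in the top 7.1% and 9.46% without 4OHT and the top 51.4% and 60.9% with it. Ranks from lists of different length cannot tell whether the opening changed. A position at 24696194, 24.6 kb downstream and at an end of Dpy19l2, was in the 3 EB lists and 3 of 4 floxed lists.

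Hand1 (chr11:57828713-57832147) had 14 positions, in a window that it shares with Galnt10, Sap30l and the noncoding genes around them. Its fibroblast positions were at ends of those neighbours. The position at 57801554, between 2010001A14Rik and Sap30l and 27.2 kb from Hand1, was in 17 of the 19 lists and missed only the day 7 knockdown lists. Leaving out the 3 positions at these neighbours, Hand1 had 11, all in EB or floxed EB lists alone. Within 1 kb of the gene ends or inside the gene there were 7 positions, of which 57830222 and 57831943 were in all 3 EB lists. Counts over the whole window were 9 in uninduced EB, 5 in induced EB and 4 in Flk1-positive EB.

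Hand2 (chr8:57320983-57324517, plus strand) had the densest window of the 7 genes, with 19 positions or 18.4 per 100 kb. Nkx2-5 had 16.9, Hand1 13.5, Isl1 8.98 and Tbx20 8.47 per 100 kb, and the longest genes, Mef2c and Tbx5, had 7.6 and 5.3. Counts were 15 in uninduced EB, 14 in induced EB and 10 in Flk1-positive EB. Hand2 had more positions in uninduced EB than 94.8% of all protein-coding genes had. In the 5 fibroblast lists it had 0, and 2 knockdown lists held 2 and 1. Of the 10 positions near the 7 genes that were in all 7 EB and floxed EB lists, 5 belonged to Hand2 and lay outside the gene. The first, at 57312756, lies 8.23 kb upstream in Hand2os1, the noncoding gene that runs away from the Hand2 start. The other 4, at 57328681, 57334136, 57341044 and 57353787, lie 4.16, 9.62, 16.5 and 29.3 kb downstream, and the last 3 of these lie within Hdnr, a noncoding gene also called handsdown. At the start itself the position at 57321422 was in the 3 EB lists and 3 of 4 floxed lists.

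Mef2c (chr13:83504017-83667079, plus strand) was the gene of the 7 that was open in fibroblasts inside its own interval. Its counts were 6 in uninduced MEF, then 3, 2 and 0 at day 1, day 2 and day 7, with 4 in day 7 Flk1-positive cells. EB had 16, 11 and 8. A broad position at 83524346, whose summits span 1459 bp at the inner start printed above, was in 15 lists: 4 of 5 fibroblast, 5 of 7 knockdown, all 3 EB and 3 of 4 floxed. Exon structure was not used here. The position at 83604321 showed the opposite pattern to most others. It was in 4 of 5 fibroblast lists and 5 of 7 knockdown lists, in the uninduced EB list alone among EB, and in 0 floxed lists. It ranked in the top 11.2% of the uninduced MEF list and the top 95.8% of the uninduced EB list. A position at 83655186 ranked in the top 14.7% of uninduced EB and the top 98.3% of uninduced MEF, and was in all 3 EB lists.

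**Figure D3:**
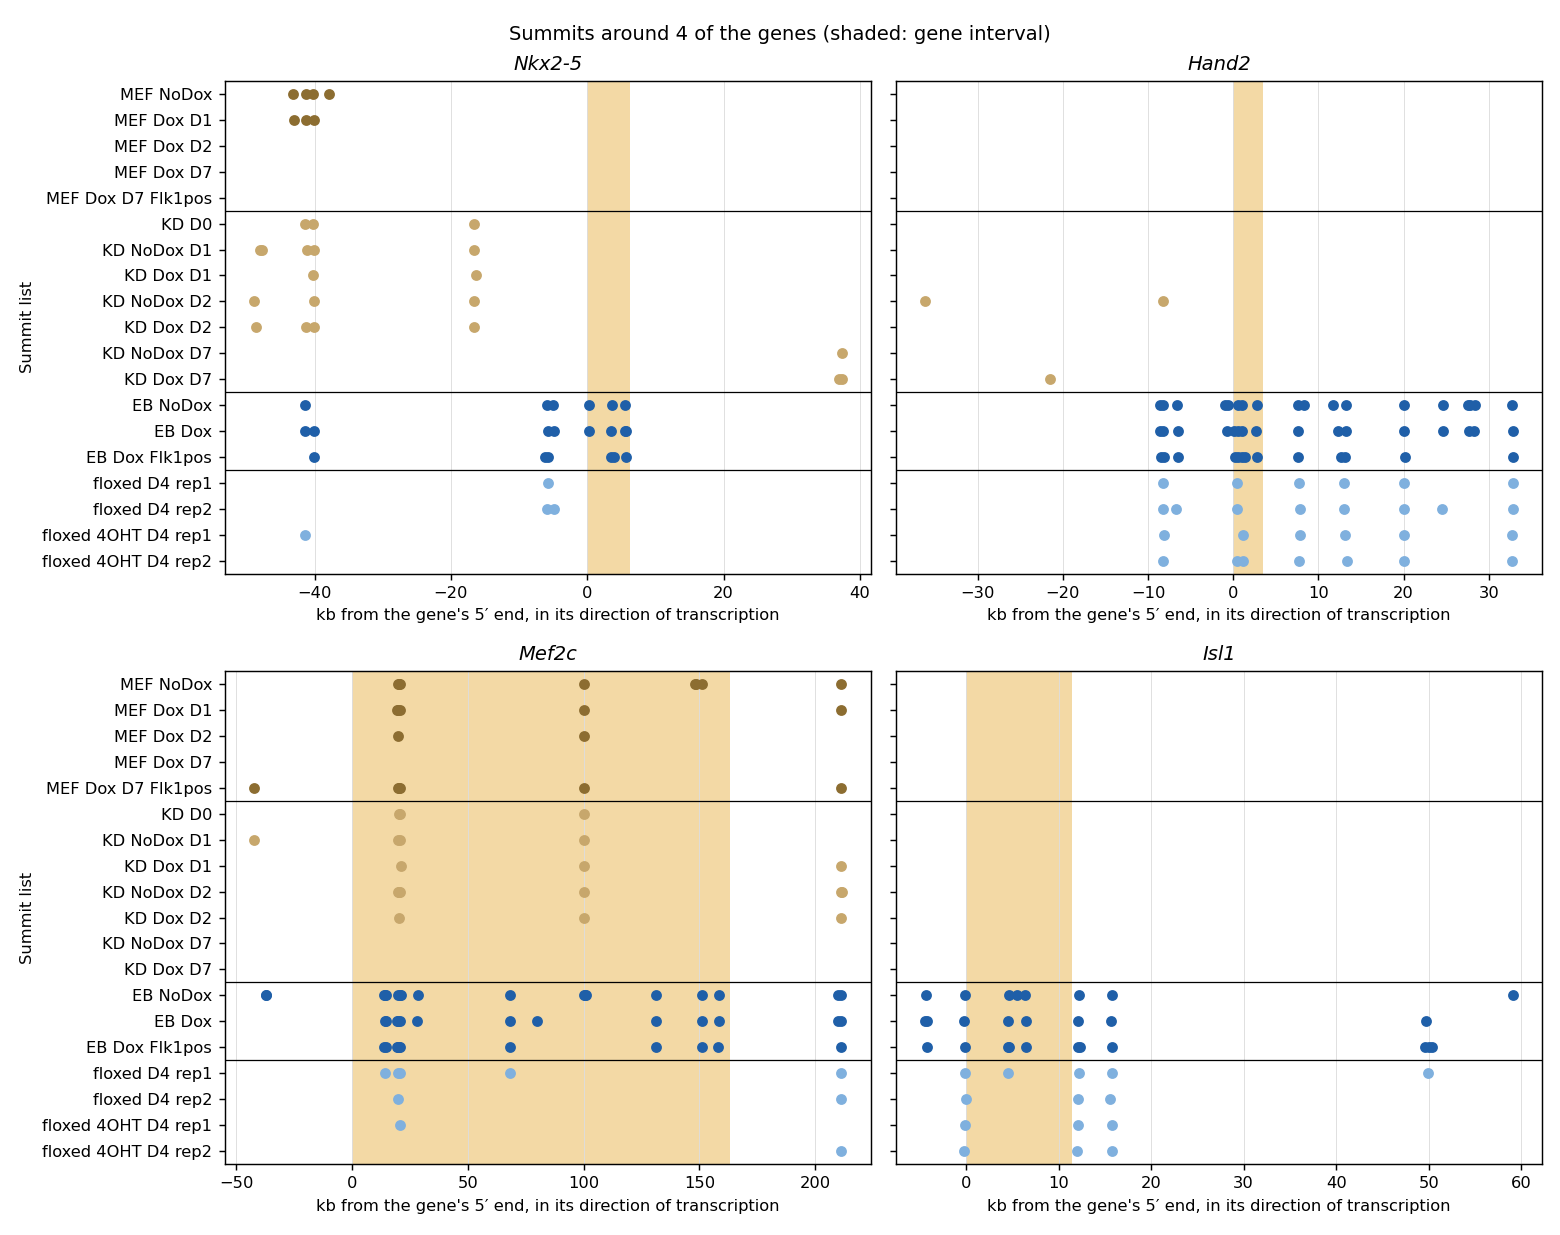
Summits of the 19 lists (vertical axis, named as in the count plot) around Nkx2-5, Hand2, Mef2c and Isl1, by distance in kb from the gene's 5′ end in its direction of transcription (horizontal axis); each dot is a summit and the shaded band is the gene. Fibroblast dots near Nkx2-5 lie 16.3 kb or more upstream or 30.7 kb or more downstream of the gene, Hand2 and Isl1 have columns of dots through the EB and floxed EB rows, and Mef2c has columns that run through fibroblast rows too.

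Fibroblast lists after doxycycline held almost no position near these genes that the uninduced list lacked. The only uninduced list without knockdown is from day 0, so induction and days in culture cannot be told apart here. Knockdown fibroblasts without doxycycline had 11 positions near the 7 genes at day 2 (44493 summits) and 1 at day 7 (11188 summits). Totals near the 7 genes were 12 in uninduced MEF, 8 at day 1, 4 at day 2, 1 at day 7 and 5 in day 7 Flk1-positive MEF. These 4 comparisons share the uninduced list. At day 1, 0 positions were gained and 4 lost (0% gained, 0 to 60.2%), against 26% gained over the genome. At day 2, 1 was gained and 9 lost (10%, 0.253 to 44.5%), against 7%. At day 7, 0 were gained and 11 lost (0%, 0 to 28.5%), against 6.42%. In Flk1-positive cells 1 was gained and 8 lost (11.1%, 0.281 to 48.2%), against 11.7%. Each genome value lay inside the members' interval. The gained positions were 57802205 at the Sap30l end near Hand1 at day 2, and 83461852, 42.2 kb upstream of Mef2c, in Flk1-positive cells. Both were also listed in knockdown fibroblasts without doxycycline, the first at day 0 and the second at day 1. No position absent from uninduced MEF was present in 2 or more induced lists, and the share over the genome for this rule was not counted. The 1 position left at day 7 was that at 57801554 near Sap30l. The lists shortened over the same course, from 62028 summits to 18418 at day 7, and the part of list length in these counts was not tested. Tbx5, Tbx20, Hand2 and Isl1 were at 0 before and after induction.

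In knockdown fibroblasts the induced and uninduced lists of the same day were compared. At day 1 the totals were 6 with doxycycline and 10 without, with 2 gained and 6 lost (25%, 3.19 to 65.1%), against 23.4% gained over the genome. At day 2 they were 8 and 11, with 2 gained and 5 lost (28.6%, 3.67 to 71.0%), against 35.1%. At day 7 they were 3 and 1, with 2 gained and 0 lost (100%, 15.8 to 100%), against 63.6%. Those 2 day 7 positions were 26807983, 30.7 kb downstream of Nkx2-5, and 57299427, 21.6 kb upstream of Hand2. The 3 knockdown positions of Hand2 and the 1 of Tbx20 were each in 1 knockdown list. Each genome value lay inside the members' interval.

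**Figure D4:**
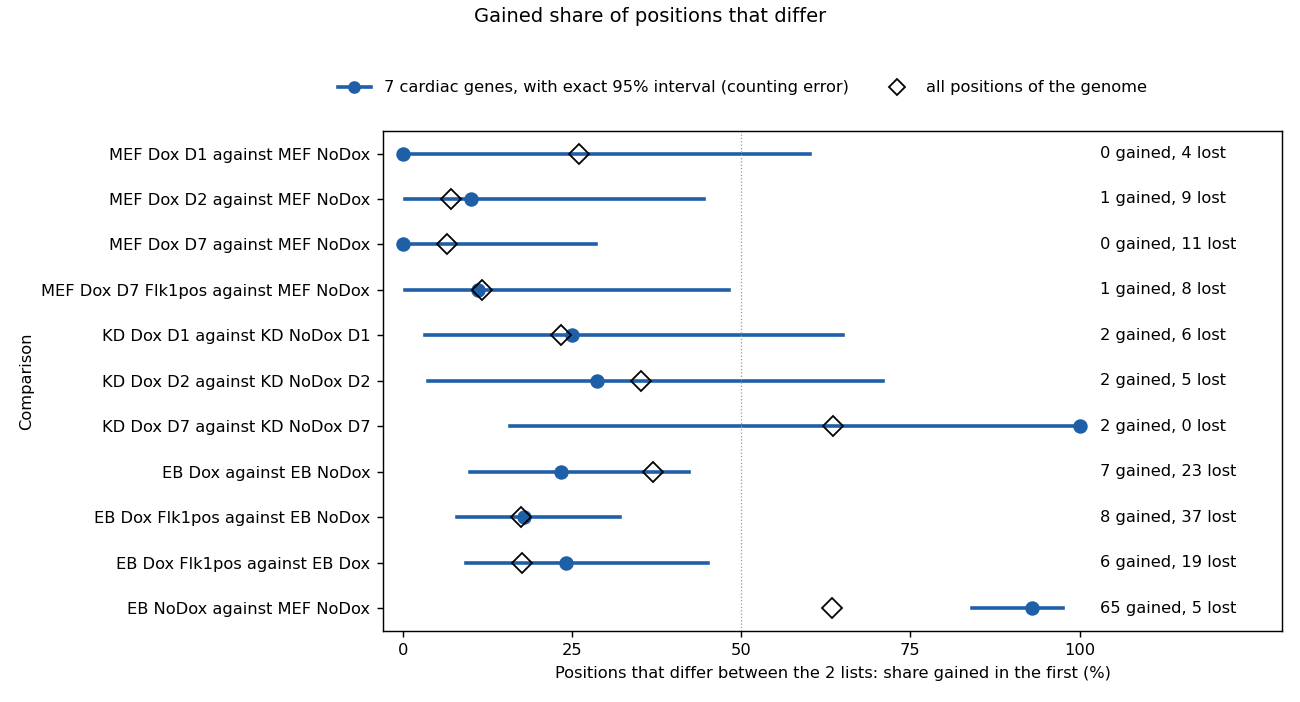
Share of the positions that differ between 2 lists that were gained in the first (horizontal axis, %), for 11 comparisons (vertical axis, lists named as in the count plot); filled circles with bars are the 7 genes with exact 95% intervals for counting error, open diamonds all positions of the genome. The diamond lies outside the bar in EB NoDox against MEF NoDox, where the 7 genes had 92.9% and the genome 63.4%.

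In embryoid bodies the genes had fewer listed positions after induction. Totals were 72 in uninduced, 56 in induced and 43 in Flk1-positive EB. Induced EB had more positions than uninduced EB at 1 gene, Nkx2-5 (7 against 6), and fewer at the other 6. Over all genes 42.4% had fewer and 25.9% more. In this comparison 7 positions were gained and 23 lost (23.3% gained, 9.93 to 42.3%), against 36.9% over the genome. Among summits with a score of 10 or more the direction turned, with 9 gained and 5 lost (64.3%, 35.1 to 87.2%), against 34.0% over the genome. Within 10 kb of the genes 3 were gained and 18 lost (14.3%, 3.05 to 36.3%), against 36.9%. That genome value covers all positions and was not limited to 10 kb of genes. The genome value thus lay inside the members' interval with all summits, below it at the higher score and above it in the narrower window. Flk1-positive against uninduced EB had 8 gained and 37 lost (17.8%, 8.0 to 32.1%), against 17.4%. At a score of 10 or more it had 5 gained and 11 lost (31.2%, 11.0 to 58.7%), against 7.13%, which lay below the interval. Here 6 genes had fewer and Isl1 kept its count of 8, while 68.5% of all genes had fewer. Flk1-positive against induced EB had 6 gained and 19 lost (24.0%, 9.36 to 45.1%), against 17.6%. With equal list lengths that comparison had 2 gained and 0 lost, against 47.5% gained over the genome. The lists shorten in the same order, from 85498 to 77987 and 58004 summits, and the part of list length was not tested.

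Positions of uninduced EB were absent from the induced list in 23 of 72 cases (31.9%, 21.4 to 44.0%), against 29.8% of all uninduced EB positions. From the Flk1-positive list 37 of 72 were absent (51.4%, 39.3 to 63.3%), against 45.6%. From both lists 22 of 72 were absent (30.6%, 20.2 to 42.5%), against 27.8%. These 22 were spread as 5 each at Tbx20 and Mef2c, 4 each at Tbx5 and Hand1, 2 each at Hand2 and Isl1, and 0 at Nkx2-5. In the other direction 3 of the 37 positions shared by both induced lists were absent from uninduced EB (8.11%, 1.7 to 21.9%), against 9.02%. They were 26885119 at Nkx2-5, 24820285 at 46.0 kb upstream of Tbx20, and 116259865 at 38.4 kb downstream of Isl1. All 3 lie over 38 kb from their gene. Each of these 4 shares had the genome value inside the members' interval.

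The floxed embryoid bodies allow a comparison with replicates. Without 4OHT the samples had 25 and 23 positions near the 7 genes, and with 4OHT 13 and 14, so the groups did not overlap. Means were 24.0 ± 1.41 and 13.5 ± 0.707 (SD, n = 2 each), a difference of -10.5 positions (exact permutation test, two-sided, p = 0.333, the smallest that the 6 relabellings of 2 against 2 allow). The 4OHT lists are shorter over the whole genome as well, with 17784 and 20043 positions against 31143 and 23568. Per 10000 summits the 7 genes had 7.95 and 9.65 without 4OHT and 7.24 and 6.92 with it. With all lists limited to equal length the difference was -2.5 positions, from 8 and 8 positions without 4OHT and 7 and 4 with it. With a score of at least 10 the samples had 10 and 6 without and 6 and 4 with 4OHT, so the groups met and the separation was lost (difference -3.0, exact permutation p = 0.667). The part of list length in the difference of -10.5 was not tested.

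Counts per gene in the floxed samples were small, and the 4OHT lists are shorter over the whole genome, so they are given as a description. Hand2 had 6 and 8 without and 6 and 7 with 4OHT, which overlap. Isl1 had 5 and 3 without and 3 and 3 with it, which also meet. Hand1 had 4 and 4 against 1 and 1, and the position left in both 4OHT samples was that at 57801554 by Sap30l. Tbx5 had 2 and 1 against 0 and 0, Tbx20 3 and 3 against 1 and 2, and Mef2c 4 and 2 against 1 and 1. Nkx2-5 had 1 and 2 against 1 and 0. No difference between genes was tested, and how many of all genes have fewer positions with 4OHT was not counted.

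**Figure D5:**
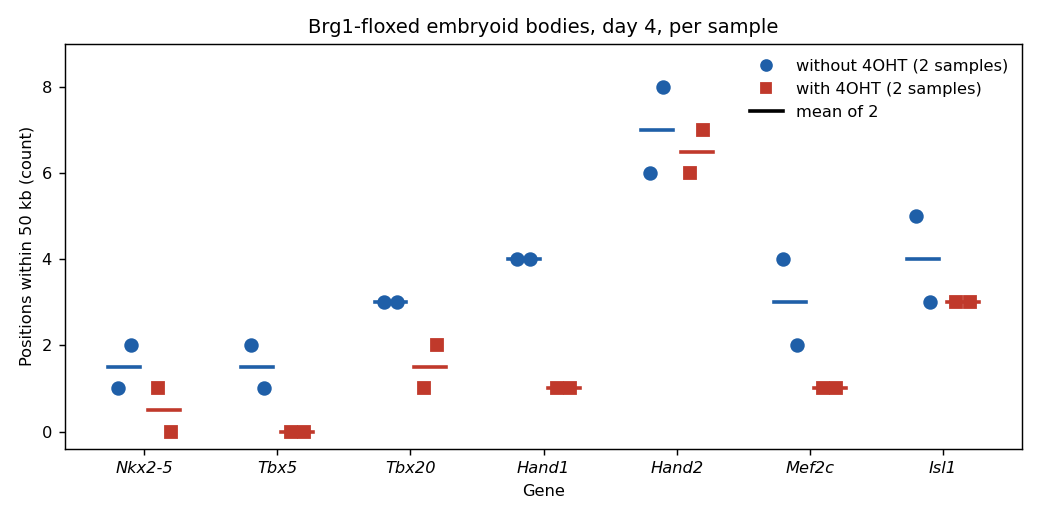
Positions within 50 kb of each gene (vertical axis, count) in the 4 Brg1-floxed EB samples of day 4, without 4OHT (circles) and with 4OHT (squares); short bars are means of 2 samples. Hand2 samples lie between 6 and 8 in both groups, and Hand1 has 4 and 4 without and 1 and 1 with 4OHT. Whether the genes differ was not tested.

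Position by position, 18 were in both floxed samples without 4OHT, and 4 of these were in neither 4OHT sample (22.2%, 6.41 to 47.6%), against 23.6% over the genome. They were 26850831, 5.84 kb upstream of Nkx2-5, 119875495 inside Tbx5, 24781149, 6.85 kb upstream of Tbx20, and 57831943 inside Hand1. In the reverse direction 1 of 11 (9.09%, 0.23 to 41.3%) was in both 4OHT samples and neither other, against 4.8%. It was 57322032 inside Hand2, which all 3 of the 12 h EB lists also held. Across EB types, 10 of the 34 positions in all 3 of the 12 h lists were in all 4 floxed lists (29.4%, 15.1 to 47.5%), against 32.6%. They were 5 at Hand2, 3 at Isl1, 1 at the start of Tbx20 and 1 at the Sap30l end near Hand1. Nkx2-5, Tbx5 and Mef2c had 0 such positions. Of the 32 positions in any floxed list, 28 were also in a 12 h EB list (87.5%, 71.0 to 96.5%), against 86.9% over the genome.

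A list of 26 other heart-forming genes, such as Gata4, Tbx3 and Myocd, gave a wider view. In uninduced EB 22 of the 26 had more positions than in uninduced MEF and 2 had fewer, with medians of 9.0 and 4.0 positions. The 7 genes had medians of 9.0 and 0. None of the 26 met the rule of a position in each EB list and 0 in all fibroblast lists, since each had a position in at least 1 fibroblast list. Gata4, a zinc finger partner of Nkx2-5 and Tbx5, had 1 position in uninduced MEF and 11 in uninduced EB. Myocd, a coactivator of smooth and cardiac muscle genes, had 10 in uninduced MEF and 5 in uninduced EB. In induced EB 15 of the 26 had fewer positions than in uninduced EB and 4 had more, and in Flk1-positive EB 24 had fewer and 1 more.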

How the data were processed

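Libraries were made by transposition with Tn5, per the labels' protocols, and reads were aligned with Bowtie2 2.2.4 to mm10, with MACS2 and HOMER also named, per the submitters' processing notes. The deposited lists give each summit a score that the authors' peak caller wrote as a −log10 q-value, and every score is at least 1.3 (q of 0.05). How replicates were pooled is not given in the sources used here.

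Summits on chromosomes 1 to 19 and X were joined within 250 bp, in the windows for the 7 genes and over the genome for the background. A position in the first of 2 lists alone is called gained and in the other alone lost, which describes list membership and not a tested change. Gene intervals and promoters came from RefSeq tables of GRCm38.p6. Intervals are exact Clopper-Pearson 95%, and floxed EB counts had an exact permutation test. The work was done in Python 3.11.15 (pandas 2.3.3, numpy 2.4.6, scipy 1.17.1, with plots in matplotlib 3.10.9), and the joining and calling were tested on simulated lists.

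All 7 genes are named in every list. The positions that could be named were those within 1 kb of a gene end, the 3 in most lists per gene, those shared by both induced EB lists and absent from the uninduced one or the reverse, those in 2 or more induced MEF lists but not the uninduced one, and those in both floxed samples of a group and neither of the other. Others named, such as single gained positions and 83655186, were chosen after their values were seen. The genes, lists and rules were chosen with earlier results of these data known. Alternatives were a join of 100 bp, a window of 10 kb, a score of at least 10, equal list lengths of 11188 summits and leaving out each floxed sample.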

Additional observations from a re-analysis of the deposited data

How the results depend on the processing

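Uninduced EB against uninduced MEF kept more gained than lost positions under every alternative tried, at 80.0% gained with equal list lengths and 86.2 to 96.3% with the others. The genome value lay below the members' interval with a join of 100 bp (61.9%), at a score of at least 10 (66.2%) and within 10 kb (63.4%), but inside it with equal lengths (50.4%, interval 44.4 to 97.5%), so the difference from the genome was not kept there. For induced against uninduced EB the genome value left the interval at a score of at least 10 and within 10 kb, on opposite sides, and for Flk1-positive against uninduced EB at a score of at least 10. Genome gained shares set beside the 10 kb window are those of all positions, not limited to 10 kb of genes. Directions turned in 2 comparisons. Induced against uninduced EB gave 64.3% gained at a score of at least 10 (genome 34.0%), and Flk1-positive against induced EB gave 100% gained with equal lengths, from 2 positions. With equal lengths, Flk1-positive against uninduced EB gave 33.3%, and day 1 knockdown and day 2 MEF induction gave 0%. At a score of at least 10, day 1 and day 2 knockdown, day 2 MEF and Flk1-positive MEF gave 0%, and within 10 kb day 2 knockdown, day 2 MEF and Flk1-positive MEF gave 0%. The cause was not tested beyond the fewer positions that these settings leave. No position differed, so no value was had, with equal lengths for day 2 knockdown, day 1 MEF and Flk1-positive MEF, within 10 kb for day 1 and day 7 knockdown, and at a score of at least 10 for day 7 knockdown. The count of genes with EB positions and none in fibroblasts, 4 of 7, was 2 with equal lengths (4.07% of all genes), 3 at a score of at least 10 (7.81%), 4 with a join of 100 bp (5.11%) and 6 within 10 kb (6.56%), alternatives chosen after seeing the data.

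The floxed difference of -10.5 positions ranged from -9.5 to -11.5 when each sample was left out in turn, and was -11.0, -8.0, -3.0 and -2.5 with a join of 100 bp, within 10 kb, at a score of at least 10 and with equal lengths. With the replicate number as a block it was -10.5 (exact permutation test within pairs, p = 0.5). The correlation over genes of the replicate differences was -0.082. This single value cannot show whether samples with the same replicate number were paired, and the labels do not tie samples to cultures. No paired analysis was possible for the pooled lists because both replicates share 1 list. Depth was not analysed here, and shorter lists can miss weak positions.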
